A study of Mus musculus with 10 samples.

Results

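The interferon-stimulated genes described here are 37 genes that cells switch on after exposure to interferon, given by name as a list of well-known members of the response. The rule used no value of these samples, but the list was drawn up with earlier results of these data known. All 37 were found among the 35705 mouse genes with a value, and all 37 passed the filter on low values that left 13841 genes for testing. The samples were medial knee cartilage caps dissected from untreated individual mice, 5 wild-type and 5 miR-324-null, with 1 RNA sequencing library per mouse. The labels call the cells chondrocytes, the cells of cartilage. miR-324 is a microRNA, a short RNA that lowers the output of messenger RNAs carrying matching sites, and the null mice lack it. The labels used here give no age, sex, strain or way of making the null allele, and the genotype labels were not checked against miR-324, which was not analysed. Expression was given as TPM, an estimate of a transcript's share of the library that is corrected for length and scaled to the same total in each library, so the number of reads behind a value is unknown.

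Type I interferons are secreted after a cell senses viral or misplaced nucleic acid. They bind the receptor chains Ifnar1 and Ifnar2, the kinases Jak1 and Tyk2 are then activated, and a complex that includes Stat2 and Irf9 binds the interferon-stimulated response element in promoters. Interferon gamma acts through a separate receptor, and its target promoters carry the gamma-activated site. Many of the induced proteins block viral replication, and others are the sensors and factors of the pathway itself. Haematopoietic cells of the bone marrow hold a baseline level of this response, and neutrophils, monocytes and plasmacytoid dendritic cells are among the cells that express these genes.

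The libraries held marrow and blood RNA beside that of cartilage. Haemoglobin genes took 11.2% to 26.1% of all TPM, and the summed level of 10 neutrophil markers ranged from 56690 to 112000 TPM in wild-type and from 56240 to 113500 TPM for the nulls. Of 8 chondrocyte markers, 6 passed the filter and Matn3 and Col9a1 averaged under 1 TPM. Acan was at 146 ± 83.4 TPM for wild-type and 72.0 ± 8.82 TPM for null mice (SD, n = 5), and Col2a1 was at 91.4 ± 31.9 and 59.0 ± 24.1 TPM. Markers of other cells differed between the genotypes without adjustment: 7 of 7 of osteoblasts and osteocytes, 5 of 5 of osteoclasts, 3 of the 6 of chondrocytes that were tested, 2 of 5 of endothelium and 4 of 8 of the B lineage were lower in null mice at p under 0.05 by limma, where the share of all genes was 7.3%, and 0 at an adjusted p. Wild-type mouse 1 stood apart: it held the highest value of the 10 mice for 33.6% of all genes tested, and for 19.6% after the median ratio scaling described below. Null mouse 5 held the lowest value for 29.8% of all genes, and for 11.3% after that scaling. In whole tissue, fewer cells of a type and less RNA per cell cannot be told apart. Each test below measures the spread between these libraries, 1 per mouse. That spread holds differences between animals together with those of dissection and library preparation, which cannot be separated.

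Promoters of some members carry the letters to which the factors of the response bind, and examples are shown because these letters are a feature independent of the measured values. RefSeq (GRCm38.p6) gave a promoter window, 250 bases before to 50 bases after the start, for 28 of the 37 members. The response element was searched as 2 copies of GAAA separated by 2 bases of any kind, on either strand, so that it reads as TTTC repeats on the other one. These letters were found in 15 of the 28 members (53.6%) and in 3.99% of 27025 genes with a window. The gamma-activated site was searched as TTCNNNGAA, which reads the same on both strands, and was found in 8 members (28.6%) and in 9.55% of all genes. The letters of both motifs were found in 4 members and of neither in 9. Each stretch below is written along the gene's strand, with the response element letters in capitals.
Isg15, chr4:156200855-156200916, minus strand: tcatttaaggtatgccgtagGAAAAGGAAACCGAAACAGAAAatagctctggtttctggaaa
Ifit1, chr19:34640765-34640833, plus strand: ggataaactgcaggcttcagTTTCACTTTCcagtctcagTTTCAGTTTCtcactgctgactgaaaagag
Ifit3, chr19:34583353-34583436, plus strand: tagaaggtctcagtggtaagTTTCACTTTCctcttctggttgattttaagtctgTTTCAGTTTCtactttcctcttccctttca
Oas1a, chr5:120907526-120907565, minus strand: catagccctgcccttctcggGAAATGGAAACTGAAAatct
Oas3, chr5:120777705-120777754, minus strand: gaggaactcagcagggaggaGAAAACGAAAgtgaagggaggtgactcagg
Rsad2, chr12:26456543-26456592, minus strand: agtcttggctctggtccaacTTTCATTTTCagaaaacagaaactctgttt
Bst2, chr8:71537567-71537622, minus strand: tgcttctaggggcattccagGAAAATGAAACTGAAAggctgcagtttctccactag

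The next pair carries the gamma-activated site letters, in capitals, and no response element letters in its windows.
Isg20, chr7:78913331-78913379, plus strand: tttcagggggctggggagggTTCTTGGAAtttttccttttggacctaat
Irf1, chr11:53769904-53769952, plus strand: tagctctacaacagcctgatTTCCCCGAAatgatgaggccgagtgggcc
In Bst2 a gamma-activated site overlaps the response element letters shown, and the window of Cmpk2 holds neither motif. A match is a run of letters, and binding was not measured.

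None of the 37 genes passed the adjusted test between the genotypes. By limma with Benjamini-Hochberg adjustment over all 13841 genes, 0 members had an adjusted p under 0.05, and the background was 0.0% of all genes tested. The smallest adjusted p of a member was 0.347 and the smallest over all genes was 0.277. Without adjustment, 2 members were higher in null mice at p under 0.05, Isg20 and Cmpk2, beside 4.28% of all genes, and 0 members were lower, beside 7.3% of all genes. Counted in either direction, that is 5.41% of the members and 11.6% of all genes. No member had its 5 null values all above or all below its 5 wild-type values, which 1.94% of all genes did.

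The signs leaned one way all the same. This lean has no test, because the members tended to be high or low in the same mice and were chosen with results of these data known. The difference between genotypes, null minus wild-type on the log2(TPM + 1) scale, was above 0 in 34 of 37 members (91.9%) and in 40.0% of all genes tested. The median difference was 0.17 over the members and -0.045 over all genes, and single members ranged from -0.08 for Irf1 to 0.60 for Mx2. Leaving out 1 animal moved this lean most. Without null mouse 2, 24 members were above 0 with a median of 0.033, beside 30.6% of all genes and a median of -0.09. Isg20, Cmpk2, Rsad2, Isg15, Usp18 and Cxcl10 moved by less than 1.5 times without that mouse, and the other 31 fell by more, to a smaller or negative value or, in the 3 members already below 0, to a lower one. Leaving out wild-type mouse 4 gave 29 members and a median of 0.087. Other omissions raised the lean. Without wild-type mouse 2, 35 members were above 0 with a median of 0.25, beside 38.5% of all genes. Without null mouse 3 or null mouse 4 it was again 35 members, with medians of 0.22 and 0.24. Scaling the libraries by median ratios, so that a shift common to most genes is taken out, moved the median of all genes to 0.0033 and left 35 members above 0 with a median of 0.21.

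**Figure D1:**
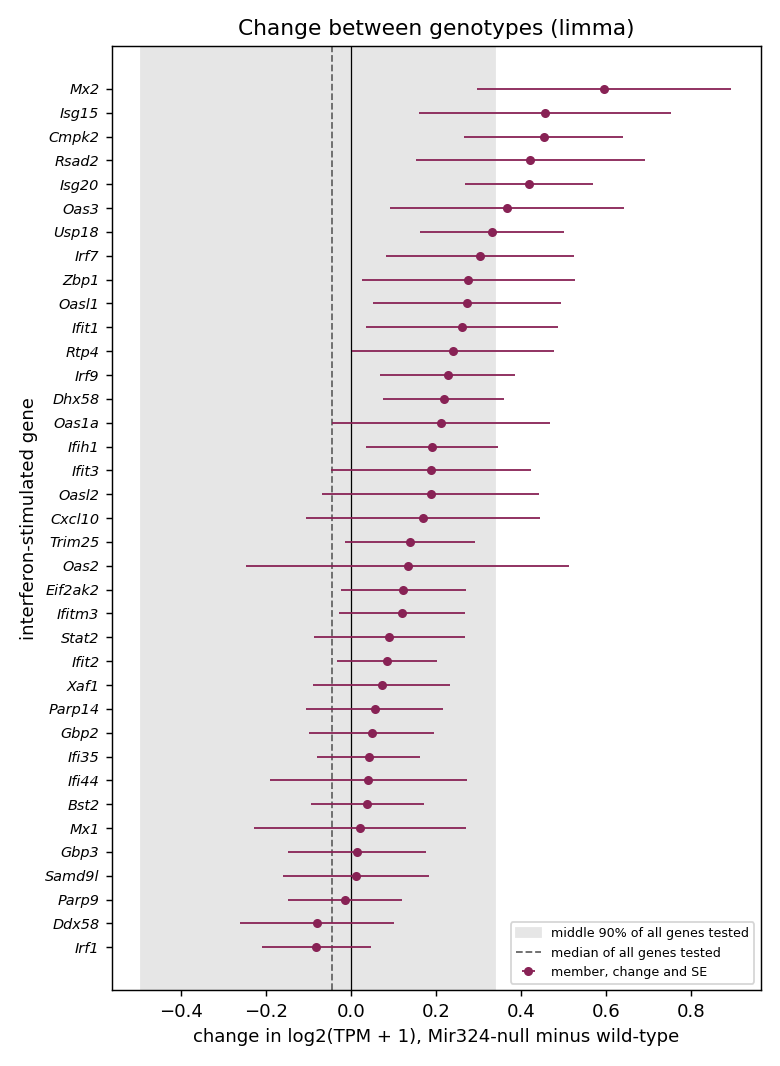
Difference in log2(TPM + 1), null minus wild-type, for each of the 37 interferon-stimulated genes, ordered by the size of the difference. Points have the standard error from limma as bars (5 mice per genotype). The shaded band holds the middle 90% of all 13841 genes tested and the line marks their median of -0.045, and 34 of the 37 points lie above 0.

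Among the nucleotide-acting antiviral enzymes the differences were similar in size, from 0.42 to 0.45, and both members with an unadjusted p under 0.05 were in this group. Isg20, an exonuclease that degrades single-stranded RNA (chr7:78913424-78920396), was at 137, 181, 222, 211 and 152 TPM in wild-type mice 1 to 5 and at 214, 213, 210, 273 and 292 TPM in null mice 1 to 5. All 5 null mice were above the wild-type mean, but wild-type mouse 3 was above 3 of them, so the groups overlapped. The means were 181 ± 36.7 and 240 ± 39.0 TPM (SD, n = 5). The difference was 0.42 ± 0.151 (SE) on the log2 scale with an adjusted p of 0.347 by limma, and the exact permutation test gave p = 0.0635, two-sided. Its unadjusted limma p of 0.0175 stayed under 0.05 in each alternative tried.

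Summed erythroid RNA had its lowest and highest values in the same mice as Isg20. The summed level of 9 erythroid markers was 112800, 166000, 199000, 188800 and 118700 TPM in wild-type mice 1 to 5 and 177000, 159400, 207500, 235500 and 263800 TPM in null mice 1 to 5. Wild-type mice 1 and 5 were lowest and null mice 4 and 5 highest in both measures, and the mice between them ran in different orders. Most of the sum was haemoglobin RNA (Hba-a1, Hba-a2, Hbb-bs and Hbb-bt). Klf1, from the same list, was lowest and highest in other mice. Of the 9 erythroid markers, 6 were higher in null mice at unadjusted p under 0.05 by limma, beside 4.28% of all genes, and 0 passed the adjusted test. The part of erythroid RNA in the Isg20 values was not tested.

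Cmpk2, a mitochondrial nucleotide kinase (chr12:26469204-26479837), was at 14.3, 24.3, 27.9, 16.8 and 31.4 TPM across wild-type mice and at 29.2, 30.3, 29.5, 30.3 and 33.4 TPM in null mice. The null values lay close together, wild-type mice 1 and 4 were low, and wild-type mouse 5 was above 4 of the null mice. With means of 22.9 ± 7.26 and 30.5 ± 1.65 TPM, the difference was 0.45 ± 0.187 (SE) with an adjusted p of 0.388 by limma and p = 0.0476 by the exact permutation test. The unadjusted limma p of 0.0329 became 0.0752 without wild-type mouse 1, 0.0845 without wild-type mouse 4, 0.0521, 0.0515 and 0.066 without null mice 2, 4 and 5, and 0.145 when only protein-coding transcripts were summed.

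Rsad2, the radical enzyme viperin, starts 12751 bases from Cmpk2 on the opposite strand (chr12:26442746-26456452). It was at 23.3, 79.3, 72.6, 55.6 and 55.0 TPM across wild-type mice and at 72.8, 76.0, 57.8, 70.1 and 81.5 TPM in null mice. Wild-type mouse 1 was far below the other 9 mice, whose values overlapped across the genotypes. The difference of 0.42 ± 0.270 (SE; adjusted p = 0.602, limma) was 0.13 without that mouse.

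**Figure D2:**
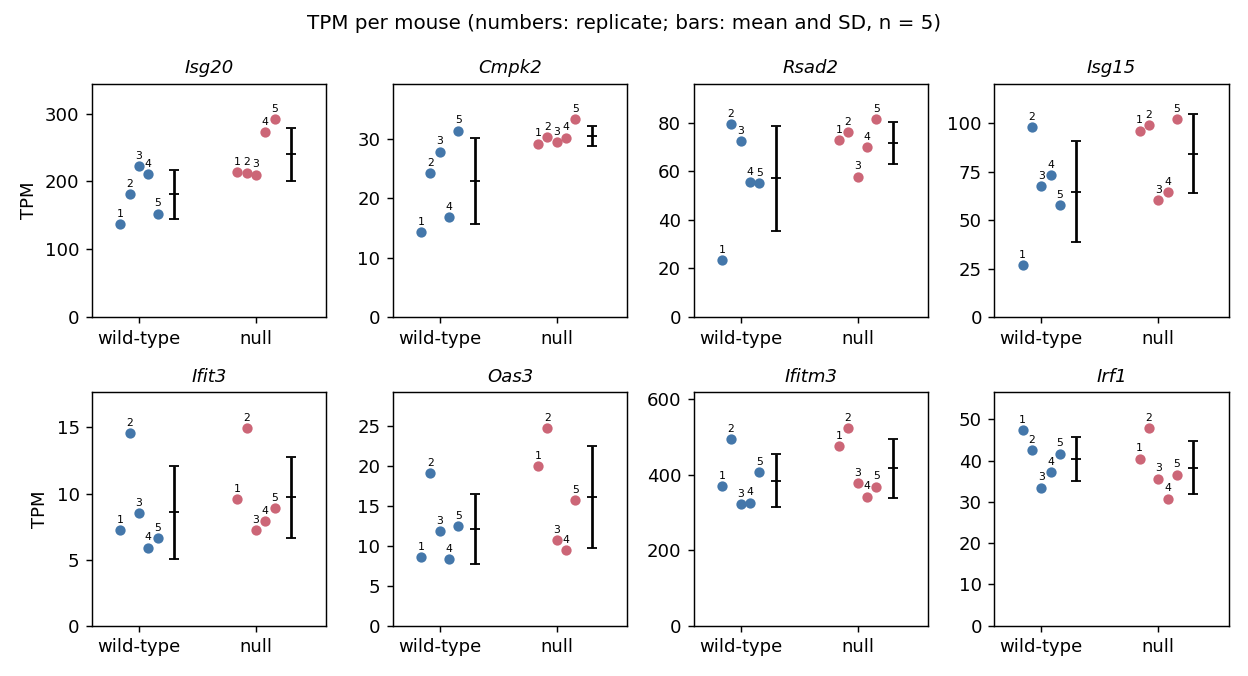
TPM per mouse for 8 interferon-stimulated genes in wild-type and null mice (points, 5 per genotype, with the mean and SD as lines). In Isg20, Cmpk2 and Rsad2 the null points all lie above the wild-type mean, and in every panel the 2 groups overlap.

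The ubiquitin-like modifier system showed the second-largest median difference of any role with more than 2 members, 0.33, with none of its 3 genes at an unadjusted p under 0.05. Isg15, the small protein that is attached to other proteins in this response (chr4:156199424-156200818), was at 26.8, 98.2, 67.7, 73.2 and 57.6 TPM across wild-type mice and at 96.2, 98.9, 60.2, 64.3 and 102 TPM in null mice. Wild-type mouse 1 was again lowest, and wild-type mouse 2 matched the high null mice 1, 2 and 5. The difference of 0.46 ± 0.296 (SE; adjusted p = 0.608, limma) was 0.17 without wild-type mouse 1 and 0.63 without wild-type mouse 2. Usp18, the protease that removes Isg15 from its targets and dampens receptor signalling, was higher in each of the 5 null mice than the average of the controls, with 6.64 ± 1.78 TPM for wild-type and 8.51 ± 1.59 TPM for null mice (SD, n = 5; difference 0.33, adjusted p = 0.486 by limma). Trim25, a ubiquitin ligase that acts on the sensor RIG-I, differed by 0.14, and by 0.019 without null mouse 2.

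The oligoadenylate synthetase family is named for enzymes that make a signal molecule that activates RNase L, an activity that not every member has. The 5 genes of this family listed here were all above 0, from 0.13 for Oas2 to 0.37 for Oas3. Their median was 0.21, with none at an unadjusted p under 0.05. Oas3 was at 8.57, 19.1, 11.9, 8.33 and 12.5 TPM across wild-type mice and at 20.01, 24.8, 10.8, 9.50 and 15.7 TPM in null mice. Null mice 1 and 2 and wild-type mouse 2 were high, and null mice 3 and 4 lay among the lower wild-type values. Oas2, the neighbouring gene 3244 bases away on chromosome 5, had the widest spread of all members, an SD between mice within genotypes of 0.696 on the log2 scale, at the 96.0th percentile of all genes tested. It was at 5.04, 4.53, 2.49, 1.71 and 2.53 TPM across wild-type mice and at 4.60, 10.1, 2.47, 1.43 and 2.37 TPM in null mice. The highest value and the lowest value both came from null mice. Without null mouse 2 its difference was -0.197, that of Oasl2 turned from 0.19 to -0.046, and Oas1a, Oas3 and Oasl1 were left at 0.00076, 0.20 and 0.095. Without wild-type mouse 2 the differences of Oas2, Oasl2, Oas1a, Oas3 and Oasl1 were 0.24, 0.31, 0.37, 0.54 and 0.35.

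Among the Ifit proteins, which bind viral RNA and block its translation, the 3 differences were 0.26 for Ifit1, 0.19 for Ifit3 and 0.08 for Ifit2, none at an unadjusted p under 0.05. Without null mouse 2 they were 0.15, 0.034 and 0.0071, and without wild-type mouse 2 they were 0.42, 0.38 and 0.12. Ifit2 was the steadiest member, with an SD of 0.152 on the log2 scale. It was at 7.37, 7.98, 6.96, 6.75 and 6.35 TPM across wild-type mice and at 7.75, 9.59, 6.86, 7.003 and 6.84 TPM in null mice, a range of 1.51-fold over all 10. Ifit3, which lies 7111 bases from Ifit2 on chromosome 19, spanned 2.53-fold, from 5.91 TPM in wild-type mouse 4 to 15.0 TPM in null mouse 2. Wild-type mouse 2, at 14.6 TPM, was the next highest, well above the other 8 mice.

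Among the 4 transcription factors of the response 3 differences were above 0 and none had an unadjusted p under 0.05. Irf7, which amplifies type I interferon production, was at 18.3, 31.2, 23.8, 20.5 and 20.3 TPM across wild-type mice and at 33.6, 46.8, 21.7, 20.2 and 24.3 TPM in null mice. Null mouse 2 was highest, null mouse 1 and wild-type mouse 2 followed, and the other 7 mice lay together. Its difference of 0.30 ± 0.222 (SE; adjusted p = 0.659, limma) was 0.12 without null mouse 2 and 0.42 without wild-type mouse 2. Irf9 differed by 0.23 and Stat2, its partner, by 0.09, and without null mouse 2 these were 0.10 and -0.035. Irf1, a factor driven mainly by interferon gamma, had the lowest difference of any member, -0.08 ± 0.129 (SE; adjusted p = 0.885, limma). It was at 47.3, 42.5, 33.4, 37.2 and 41.7 TPM across wild-type mice and at 40.5, 47.9, 35.7, 30.8 and 36.6 TPM in null mice, with no order between the genotypes, and its difference was 0.0063 when haemoglobin genes were left out of the scaling.

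The sensors of viral nucleic acid were 4 above and 1 below 0. Zbp1, a sensor of left-handed nucleic acid, differed by 0.28, Dhx58 by 0.22, Ifih1 (MDA5) by 0.19 and the double-stranded RNA kinase Eif2ak2 (PKR) by 0.12, none at an unadjusted p under 0.05. Without null mouse 2 these were 0.14, 0.10, 0.12 and 0.043. Ddx58, which encodes RIG-I, was at 19.3, 16.6, 13.7, 10.4 and 14.5 TPM across wild-type mice and at 15.0, 18.1, 15.2, 12.2 and 9.82 TPM in null mice, a difference of -0.08 ± 0.181 (SE; adjusted p = 0.928, limma). The highest and the second-highest values were 1 of each genotype. Processed transcripts without a coding sequence made up 42.7% of its TPM, and with protein-coding transcripts alone its difference turned to 0.13.

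Mx2 had the largest difference of any member and 1 of the lowest levels. This gene of the dynamin-like Mx GTPases (chr16:97535308-97560900) was at 2.14, 1.88, 1.16, 0.758 and 0.896 TPM across wild-type mice and at 2.80, 5.55, 2.86, 1.68 and 0.988 TPM in null mice. Null mice 1, 2 and 3 were above all wild-type mice, and null mouse 5 was among the lowest. The difference of 0.60 ± 0.298 (SE; adjusted p = 0.477, limma; exact permutation test p = 0.111) was 0.37 without null mouse 2. None of its TPM came from a transcript annotated as protein-coding: 52.0% was in a retained-intron transcript and 41.1% in polymorphic pseudogene transcripts. Mx1, 72400 bases away, differed by 0.02, and 52.6% of its TPM was in transcripts annotated for nonsense-mediated decay. The guanylate-binding proteins Gbp2 and Gbp3, GTPases that attack vacuoles of intracellular microbes, differed by 0.05 and 0.01.

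Of the membrane proteins that hold back viruses, 1 was the most abundant member. Ifitm3, which blocks viral fusion in endosomes, was at 371, 494, 323, 326 and 408 TPM across wild-type mice and at 477, 524, 378, 342 and 369 TPM in null mice, the highest mean of all members (401 TPM). Its difference was 0.12 ± 0.148 (SE; adjusted p = 0.837, limma), and null mouse 2 and wild-type mouse 2 were highest. Without null mouse 2 it was 0.033. Bst2, or tetherin, which holds budding virus at the cell surface, was at 63.5, 69.7, 55.6, 62.4 and 51.4 TPM across wild-type mice and at 58.5, 85.8, 56.0, 55.7 and 57.6 TPM in null mice. In the null group 4 mice lay between 55.7 and 58.5 TPM and null mouse 2 stood above them, and the difference over all mice was 0.04.

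The remaining members were close to 0 or scattered. Parp9, an ADP-ribosyltransferase, was at 15.5, 20, 14.5, 14.3 and 16.9 TPM across wild-type mice and at 16.6, 21.02, 14.5, 13.6 and 15.0 TPM in null mice, a difference of -0.01 ± 0.134 (SE) that was above 0 under each of 3 other scalings. Parp14 differed by 0.06. Ifi35, at 20.8, 28.7, 24.6, 21.5 and 22.6 TPM across wild-type mice and at 25.6, 30.0, 21.7, 21.1 and 23.5 TPM in null mice, had the narrowest range of any member, 1.44-fold over the 10 mice. Its difference was 0.04 over all transcripts and -0.098 with protein-coding transcripts alone. Of the other genes, Rtp4 differed by 0.24 (0.05 without null mouse 2), Xaf1 by 0.07, Ifi44 by 0.04 and Samd9l by 0.01. Cxcl10, a chemokine that attracts T cells, ranged from 2.05 TPM in wild-type mouse 1 to 6.88 TPM in wild-type mouse 2, with the null mice between 2.61 and 6.01 TPM and a difference of 0.17.

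**Figure D3:**
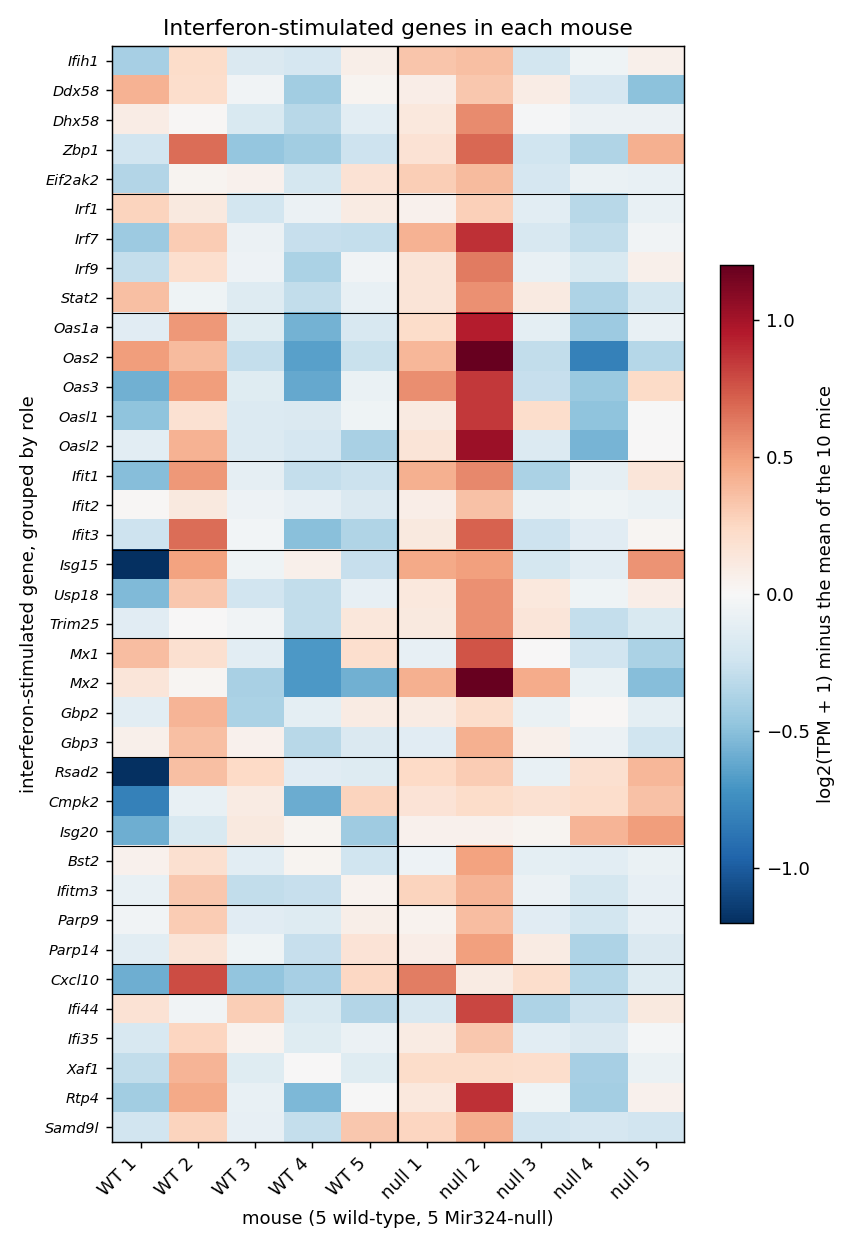
Level of each interferon-stimulated gene in each mouse as log2(TPM + 1) minus the gene's mean over the 10 mice, ordered by role; values beyond the ends of the colour bar take its end colour. Wild-type mouse 2 and null mouse 2 are above the mean for most genes, and wild-type mouse 4 and null mouse 4 are below it for most.

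Single mice of both genotypes stood out across the list. A score was taken for each mouse as the mean log2(TPM + 1) over the 37 genes. It was 3.78, 4.27, 3.88, 3.70 and 3.91 in wild-type mice 1 to 5 and 4.18, 4.56, 3.94, 3.79 and 3.98 in null mice 1 to 5. The group means were 3.91 ± 0.218 and 4.09 ± 0.296 (SD, n = 5), so the difference of 0.18 was smaller than either SD. The 10 mice spanned 0.853, a range that can never be below the difference of the group means. Null mouse 2, wild-type mouse 2 and null mouse 1 held the 3 highest scores, and wild-type mouse 4 and wild-type mouse 1 the lowest. The members were chosen with results of these data known, so the score has no test.

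Counting genes gave the same order at the top. Of the 37 members, null mouse 2 was above the gene's own median over the 10 mice in 37, wild-type mouse 2 in 35 and null mouse 1 in 33, where the share of all genes tested was 75.5%, 48.6% and 45.2%. In the other 7 mice the count ran from 3 in wild-type mouse 4 to 18 in null mouse 5. The share of all genes was 38.0% in wild-type mouse 4 and 22.4% in null mouse 5. Null mouse 2 had the highest value of the 10 mice in 29 members and in 20.1% of all genes. The 4 members that peaked in null mouse 5 were Isg20, Cmpk2, Rsad2 and Isg15, all from the antiviral enzymes and the modifier system, and this grouping was picked out after the values were seen.

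Another scaling of the libraries moved null mouse 5 most. That mouse had the most haemoglobin RNA, 26.1% of TPM, and the smallest median ratio size factor, 0.864. With median ratio scaling it was above the gene's median in 32 of 37 members in place of 18, beside 33 in null mouse 1 and 32 each in null mouse 2 and wild-type mouse 2. The share of all genes was 49.6% to 50.2% in these mice. Null mouse 2 then had the highest value in 20 members and in 7.4% of all genes. Wild-type mouse 2 had it in 10 members in place of 3, and in 8.81% of all genes. The score difference was then 0.227, with 3.88 ± 0.243 in wild-type and 4.11 ± 0.224 in null mice, so it was slightly above the null SD and below the wild-type SD. Wild-type mouse 1, with the largest size factor, 1.13, had the lowest score, 3.62, and the lowest value in 20 members and in 23.1% of all genes.

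**Figure D4:**
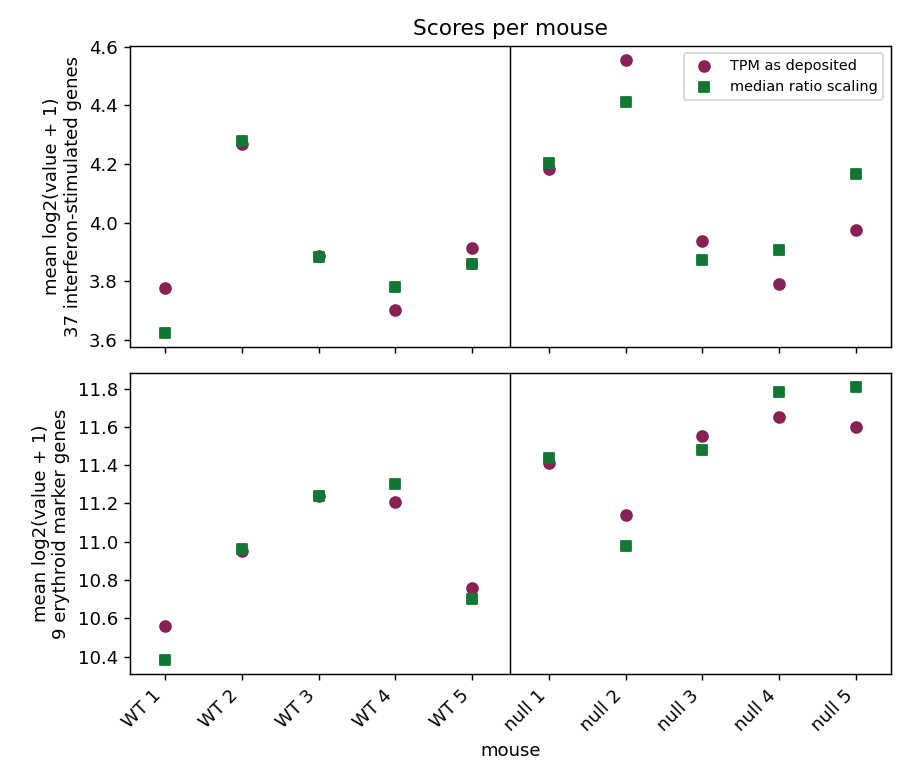
Score of the 37 interferon-stimulated genes and of 9 erythroid markers in each mouse, as mean log2(TPM + 1). Values are TPM as deposited and after median ratio scaling. Points are mice, 5 per genotype, and a vertical line separates the genotypes. The interferon-stimulated score overlaps between the genotypes under both scalings, with wild-type mouse 2 and null mouse 2 highest in their groups.

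The list as a whole was uneven between animals of the same genotype. The SD between mice within genotypes was above the median of all genes tested, 0.240 on the log2 scale, in 29 of 37 members, and their median SD was 0.304. Above the 90th percentile of all genes, 0.482, were 6 members: Oas2, Isg15, Mx2, Oas3, Rsad2 and Cxcl10. These were not all low genes: Isg15 and Rsad2 had means of 74.5 and 64.4 TPM. By level, 13 members had a mean of 1 to 10 TPM, 19 of 10 to 50 TPM and 5 above that, and the lowest mean was 1.96 TPM, for Ifi44.

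**Figure D5:**
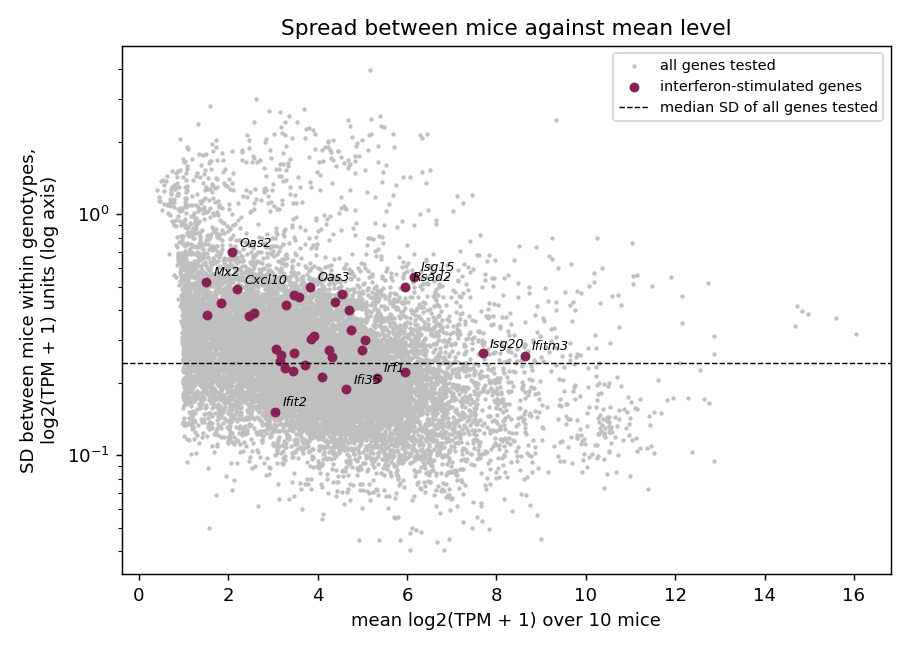
SD between mice within genotypes (log axis) against mean level, both on the log2(TPM + 1) scale, for the 37 interferon-stimulated genes (dark points) and all 13841 genes tested (grey). Of the 37 points, 29 lie above the dashed line, the median SD of all genes, and Ifit2 lies lowest.

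The ligands that start the response were near or at 0. Of 11 interferon genes looked up, 9, among them Ifnb1 and all of the alpha interferons searched, were listed at 0 in every library, and Ifng and Ifnz reached at most 0.433 and 0.424 TPM. None passed the filter. The receptor chains were present at levels that overlapped between genotypes: Ifnar1 was at 23.4 ± 1.72 and 23.1 ± 3.38 TPM, Ifnar2 at 69.3 ± 3.59 and 68.2 ± 9.40 TPM, Ifngr1 at 93.3 ± 10.8 and 88.6 ± 15.6 TPM and Ifngr2 at 42.4 ± 7.01 and 39.9 ± 9.50 TPM in wild-type and null mice (SD, n = 5). The kinases Jak1, Jak2 and Tyk2 differed by 0.05, 0.16 and 0.07 on the log2 scale.

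Of 116 other gene names of the pathway looked up, some of them alternative names of the same gene, 113 were found. Of these, 101 passed the filter, and 0 had an adjusted p under 0.05 by limma. Without adjustment, 4 were higher in null mice at p under 0.05 and 0 were lower, and 65 differences were above and 36 below 0. Over all genes tested, 4.28% were higher and 7.3% lower at that threshold and 40.0% were above 0. Among 51 further interferon-stimulated genes, 38 were above 0 with a median of 0.064, and Gbp8, Ube2l6 and Nt5c3 had an unadjusted p under 0.05. Among 14 genes of the interferon gamma response and antigen presentation, 7 were above 0, with a median of 0.0013. The 11 negative regulators had 7 above 0, and the 15 genes of interferon induction had 8, with Mavs at an unadjusted p under 0.05.

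Mavs, the mitochondrial adaptor of the RNA sensors, was at 15.98, 12.8, 16.6, 13.96 and 15.7 TPM across wild-type mice and at 17.7, 20.6, 20.5, 15.9 and 16.9 TPM in null mice, and null mouse 4 alone lay below a wild-type value. The difference was 0.27 ± 0.110 (SE; adjusted p = 0.381, limma), with p = 0.0238 by the exact permutation test. Gbp8 was at 4.65, 4.19, 4.60, 3.001 and 3.77 TPM across wild-type mice and at 4.90, 7.04, 5.43, 4.51 and 5.12 TPM in null mice, with null mouse 4 again the only one inside the wild-type range. Its difference was 0.34 ± 0.145 (SE; adjusted p = 0.398, limma).

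Ube2l6, the enzyme that passes Isg15 to its ligases, was at 137, 269, 324, 268 and 202 TPM across wild-type mice and at 300, 280, 320, 369 and 403 TPM in null mice. Nt5c3, a nucleotidase of pyrimidine breakdown that is active in red cells, was at 92.5, 144, 160, 146 and 136 TPM across wild-type mice and at 176, 165, 157, 194 and 189 TPM in null mice. The differences were 0.53 ± 0.205 and 0.39 ± 0.136 (SE), with adjusted p of 0.369 and 0.338 by limma. In both genes wild-type mouse 1 was lowest and null mice 4 and 5 highest, the order also seen in Isg20 and in the summed erythroid markers, whose part in these values was not tested.

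Markers of plasmacytoid dendritic cells, the cell type best known for type I interferon, were low. The summed level of 5 markers was 17.3 to 29.5 TPM in wild-type and 26.1 to 47.5 TPM in null mice, highest in null mouse 2. By the same threshold of 0.05, 2 of the 5 were higher in null mice before adjustment, beside 4.28% of all genes, and 0 after it. The monocyte and macrophage sum ran from 999 to 1506 TPM in wild-type and from 908 to 1601 TPM in null mice, and null mouse 2 was again highest. Most of that sum was Ly6c2, at 1202 TPM in null mouse 2, and the mean log2 level of the 8 markers was highest in wild-type mouse 2, at 6.08 beside 6.04 in null mouse 2. Neutrophil sums were highest in null mouse 1 (113500 TPM) and wild-type mouse 5 (112000 TPM). Wild-type mouse 2 (96690 TPM) and null mouse 2 (80680 TPM) came next. No marker of these lists was at 0 in all mice, and the part of any cell type in the differences between mice was not tested.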

How the data were processed

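The deposited table holds TPM for 116912 mouse Ensembl transcripts in 10 libraries, made by the authors with kallisto, per the submitters' processing notes. The authors' notes also list DESeq2 and GRCh38, a human build, with no role stated, although the transcripts are mouse. The index, trimming, read layout and use of strand are not given in the sources used here, and TPM keeps no depth. Library preparation used a low-input RNA kit, per the labels' protocols. No batch is given, so none was fitted.

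Transcript versions were dropped and 115440 transcripts were matched to GENCODE M21 (GRCm38); the 1472 unmatched ones held 0.275% to 0.356% of TPM. TPM was summed per gene, and genes averaging 1 TPM or more were kept. Reads shared between near-identical family members (Oas, Oasl, Ifit, Gbp, Mx) may have been divided unevenly by kallisto. A difference is on the log2(TPM + 1) scale, which understates the change of low genes. All 10 mice were fitted with limma 3.58.1 in R 4.3.3 (trend on mean level, no covariates, two-sided, Benjamini-Hochberg over 13841 genes). Single genes were also tested by exact permutation over all 252 assignments (smallest p 0.00794). The fit was tested on simulated data. Other steps used Python 3.11.15, numpy 2.4.6, pandas 2.3.3, scipy 1.17.1 and matplotlib 3.10.9.

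The 37 members and all lists were chosen with earlier results of these data known. Values per mouse were given by rule for members with an unadjusted p under 0.05 or groups that did not overlap, the 6 highest means, the 4 largest and 4 smallest SDs and the 3 largest differences each way, and for pathway genes with an unadjusted p under 0.05 or listed among the main receptors and kinases (1 item is not reported here); Irf7 was added after seeing its values. Alternatives were another pseudocount, other filters, 3 scalings, protein-coding transcripts alone, limma without a trend, a replicate block and leaving out each mouse.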

Additional observations from a re-analysis of the deposited data

Results flagged for a closer look

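In 3 genes a single mouse stood far from the rest of its group of 5, measured as the gap to the nearest mouse divided by the group's range on the log2(TPM + 1) scale, against a critical value of 0.71. Bst2 in null mouse 2, at 85.8 TPM, gave 0.889. Zbp1 in wild-type mouse 2, at 18.1 TPM, gave 0.798. Cmpk2 in null mouse 5, at 33.4 TPM, gave 0.732. In 76 groups checked, chance would give about 3.8 such values at 1 in 20.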

How the results depend on the processing

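The count of members at an adjusted p under 0.05 was 0 under all 19 alternatives, and the smallest adjusted p of any member by limma was 0.195. Members at an unadjusted p under 0.05 numbered 2, and 5 with median ratio scaling (Isg20, Cmpk2, Mx2, Usp18 and Dhx58), 5 with quantile normalization and 5 without haemoglobin genes in the scaling, where 1763, 1813 and 1797 of all 13841 genes had such a p. With the replicate number as a block (replicate block) there were 4; same-numbered mice did not deviate together (correlations -0.107, -0.0066, -0.144, 0.0564 and 0.0207), so the numbers were not taken as pairs. Leaving out each mouse gave 1 (without wild-type mouse 4, null mouse 2 or null mouse 4) to 5 (without wild-type mouse 2). Other pathway genes at an unadjusted p under 0.05 numbered 4, 12 without haemoglobin genes in the scaling, and 2 (without wild-type mouse 4) to 6 (without wild-type mouse 2) when a mouse was left out. For the block and for each mouse left out, the share of all genes at that threshold is not given here. Neither the member counts nor the pathway counts of those fits can be read against it. The score difference ran from 0.0626 without null mouse 2 to 0.27 without wild-type mouse 2, and was 0.227 with median ratio scaling, 0.231 with quantile normalization and 0.264 without haemoglobin genes in the scaling. Direction turned in 38 of 696 pairs of a member and an alternative; 23 members kept theirs throughout. Without haemoglobin genes in the scaling, Irf1 was 0.0063, Ddx58 0.0036 and Parp9 0.071. Parp9 was 0.037 with median ratio scaling and 0.032 with quantile normalization, and with protein-coding transcripts alone Ddx58 was 0.13 and Ifi35 -0.098. Leaving out each mouse gave ranges across 0 for Stat2 (-0.035 to 0.19), Oas2 (-0.197 to 0.35), Oasl2 (-0.046 to 0.35), Mx1 (-0.16 to 0.12), Bst2 (-0.078 to 0.0905), Ifi44 (-0.15 to 0.14), Ifi35 (-0.034 to 0.11), Ddx58 (-0.19 to 0.032), Parp9 (-0.11 to 0.059), Parp14 (-0.061 to 0.15), Gbp2 (-0.041 to 0.16), Gbp3 (-0.092 to 0.11) and Samd9l (-0.096 to 0.093). The cause was not tested. No depth can be read from TPM, so how far depth limits the low members is unknown.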
